A study of Mus musculus with 14 samples.

Results

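The 9 genes described here encode transcription factors that set and keep the identity of the hepatocyte: Hnf4a, Foxa1, Foxa2, Foxa3, Cebpa, Nr1h4, Nr0b2, Nr1i2 and Nr1i3. They were chosen by name as a textbook set, with earlier results of these data known. All 9 were found among the 16821 genes of one deposited table and the 16095 of the other. RNA was sequenced from liver tumours of mice (hepatocellular carcinomas) with MYC as their driver, each carrying a guide RNA that directs Cas9 to 1 gene. The tumours carried a guide against Cul3 (sgCul3, 3 tumours), against Keap1 (sgKeap1, 3 tumours), against the ETGE motif of NRF2 (sgNrf2, tumours A and B) or, as the control, against GFP (sgGFP, 4 tumours). All of them, the sgGFP tumours included, share the MYC driver. The sgNrf2 tumours stand in the second table beside controls A and B, which the labels call repeats of sgGFP tumours 2 and 4, so the comparisons with sgGFP and with these controls are not independent. KEAP1 holds NRF2 through its ETGE motif and hands it to the CUL3 ubiquitin ligase, and the study used the guides to activate NRF2. The labels number the tumours but do not say that each came from a separate mouse, so the p-values cover the spread among these tumours alone, which may be technical.

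HNF4A, C/EBPα and the FOXA proteins bind many liver genes together and keep hepatocytes differentiated. Nr1h4 encodes FXR, the nuclear receptor for bile acids, and Nr0b2 encodes SHP, a nuclear receptor without a DNA-binding domain that FXR induces and that represses the bile acid synthesis genes Cyp7a1 and Cyp8b1. Nr1i2 encodes PXR and Nr1i3 encodes CAR, receptors that switch on cytochromes P450 and conjugating enzymes in response to foreign compounds.

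Of the 9 genes, Nr0b2 in sgNrf2 tumours was the single member to pass the main test (limma, adjusted p under 0.05) in any comparison of a guide with its control. It was almost absent there, at a mean of 14.5 normalised reads in sgNrf2 tumours and 1031 in controls, 71.2 times less. The other 8 members had reads in every tumour, and limma called none of them there. DESeq2 also called Nr1i2, Nr1i3 and Cebpa in sgNrf2 tumours, where it called 2651 of 13989 genes tested and limma 617. In sgCul3 and in sgKeap1 tumours limma called 0 of the 9, where it called 2.2% and 7.82% of all genes tested. DESeq2 called Nr0b2 and Nr1i2 in sgCul3 tumours, where it called 926 of 13045 genes tested.

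The stretches before the starts of 4 genes are shown because the results turn on them: Nr0b2 was the member that fell, Nr1i2 and Nr1i3 had the next lowest values in sgNrf2 tumours, and Cyp8b1 is a target of SHP that rose under all 3 guides. Each line holds the 250 bases before the start, 5′ to 3′ on the strand of the gene, from RefSeq on GRCm38.p6. They lie at chr4:133553126-133553375 (plus strand) for Nr0b2, chr16:38294825-38295074 (minus strand) for Nr1i2, chr1:171213720-171213969 (plus strand) for Nr1i3 and chr9:121916306-121916555 (minus strand) for Cyp8b1. Capitals mark matches on either strand to TCAAGG (the core bound by LRH-1), TGTTTNC (the FOXA core), AGGTCA (a nuclear receptor half-site) or TGACNNNGC (the core of the antioxidant response element that NRF2 binds).
Nr0b2: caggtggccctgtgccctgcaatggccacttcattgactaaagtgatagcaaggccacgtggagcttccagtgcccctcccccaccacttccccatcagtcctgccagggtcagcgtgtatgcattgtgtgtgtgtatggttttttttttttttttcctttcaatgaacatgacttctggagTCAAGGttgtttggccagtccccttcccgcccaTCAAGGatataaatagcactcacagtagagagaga
Nr1i2: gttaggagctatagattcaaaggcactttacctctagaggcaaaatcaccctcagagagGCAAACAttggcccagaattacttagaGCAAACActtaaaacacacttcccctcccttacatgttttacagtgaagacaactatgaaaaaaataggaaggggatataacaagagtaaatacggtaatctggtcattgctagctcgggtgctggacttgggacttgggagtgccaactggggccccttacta
Nr1i3: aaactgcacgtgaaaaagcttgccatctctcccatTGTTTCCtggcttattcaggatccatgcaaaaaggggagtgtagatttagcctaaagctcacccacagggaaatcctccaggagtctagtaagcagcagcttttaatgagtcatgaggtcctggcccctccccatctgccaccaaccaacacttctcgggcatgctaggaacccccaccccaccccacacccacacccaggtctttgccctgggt
Cyp8b1: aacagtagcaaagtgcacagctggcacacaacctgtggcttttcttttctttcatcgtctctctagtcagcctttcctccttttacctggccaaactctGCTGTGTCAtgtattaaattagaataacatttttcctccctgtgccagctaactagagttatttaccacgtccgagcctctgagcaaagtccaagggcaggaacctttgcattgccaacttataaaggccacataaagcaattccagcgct

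All 9 members were in the promoter table, with 12 starts between them. The Nr0b2 stretch holds TCAAGG at 68 and at 35 bases before the start. A member counts where any of its starts has a match. Among the members, Nr0b2 and Foxa2 hold this core, 2 of 9 genes and 3 of 12 starts, and 12.5% of 32851 promoters of this length do. The FOXA core is in 4 of the 9 (Hnf4a, Foxa1, Nr1i2 and Nr1i3), or 4 of 12 starts, and in 17.8% of all promoters. The half-site AGGTCA is before the start of Nr1h4 alone among the members and in 14% of all. TGACNNNGC is before the start of 0 of the 9 members and in 10.2% of all promoters, and it occurs once in the Cyp8b1 stretch. TCAAGG and AGGTCA can share letters where they meet, but they do not in the stretches shown. A match is a string of letters, not a site shown to be bound.

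The libraries held 6333025 to 12008223 reads on genes in the table of sgCul3, sgKeap1 and sgGFP tumours and 17819333 to 20848578 in the table of sgNrf2 tumours and controls. Keap1 had 387 ± 90.2 normalised reads in sgKeap1 tumours and 652 ± 71.8 in sgGFP tumours (SD, n = 3 and 4; log2 fold change -0.77 ± 0.21 SE, adjusted p = 0.0485), a call that 11 of 17 alternatives did not make, the omission of either sgKeap1 tumour 2 or 3, or of any 1 sgGFP tumour, among them. Cul3 had 422 ± 256 in sgCul3 tumours and 1189 ± 184 in sgGFP tumours (-1.70 ± 0.39, adjusted p = 0.0509, or 0.0165 without sgCul3 tumour 3). Nfe2l2, whose product is NRF2, was at -0.05 ± 0.22 in sgNrf2 tumours, where the edited motif lies within a transcript that is still counted, so its level checks nothing. The hepatocyte label was held against 9 of 10 listed marker genes, whose summed level was between 126403 and 1329720 normalised reads in every tumour of the first table and between 318418 and 852220 in the second. Erythroid markers fell for 3, 5 and 6 of 7 genes tested in sgCul3, sgKeap1 and sgNrf2 tumours, and neutrophil markers for 0, 4 and 2 of 6. Limma called 2.2%, 7.82% and 4.41% of all genes tested there. In sgNrf2 tumours 2 of 7 macrophage markers fell, and 1 of 7 endothelial and 1 of 7 stellate cell markers rose. In sgCul3 tumours 1 of 7 endothelial markers fell. Of 8 fetal liver markers 1, Sall4, fell under each guide. The part of such cells in the levels of the members was not tested. No marker of the lists was at 0 in every library of a table.

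Levels of different genes were set side by side as reads per kilobase of exon, scaled to the reads on genes of the library (RPKM). In sgNrf2 tumours the order was Hnf4a (152 ± 5.66 RPKM, SD, n = 2), Cebpa (73.7 ± 14.9), Nr1h4 (43.3 ± 4.48), Foxa3 (34.0 ± 5.91), Nr1i2 (32.8 ± 1.27), Nr1i3 (10.8 ± 2.23), Foxa2 (9.46 ± 0.13), Foxa1 (5.46 ± 0.96) and Nr0b2 (0.76 ± 0.36). In sgGFP tumours it was Hnf4a (97.3 ± 33.6 RPKM, SD, n = 4), Nr1i2 (68.2 ± 26.9), Nr0b2 (56.7 ± 26.5), Cebpa (42.6 ± 5.25), Foxa3 (37.2 ± 8.57), Nr1h4 (26.8 ± 5.85), Nr1i3 (16.8 ± 5.89), Foxa2 (7.32 ± 3.91) and Foxa1 (3.71 ± 1.76). Neighbours in the sgNrf2 order had separate ranges, except Foxa3 and Nr1i2, and Nr1i3 and Foxa2. In the sgGFP order the ranges of all neighbours overlapped. Nr0b2 was the third of the 9 in sgGFP tumours and the last in sgNrf2 tumours. In sgCul3 tumours Hnf4a (110 ± 30.1 RPKM) and Cebpa (53.2 ± 3.26) led, and Nr0b2 was at 22.8 ± 6.73. In sgKeap1 tumours Hnf4a (68.6 ± 24.6) and Cebpa (50.7 ± 9.79) led as well, and Nr0b2 was at 35.9 ± 20.0.

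**Figure D1:**
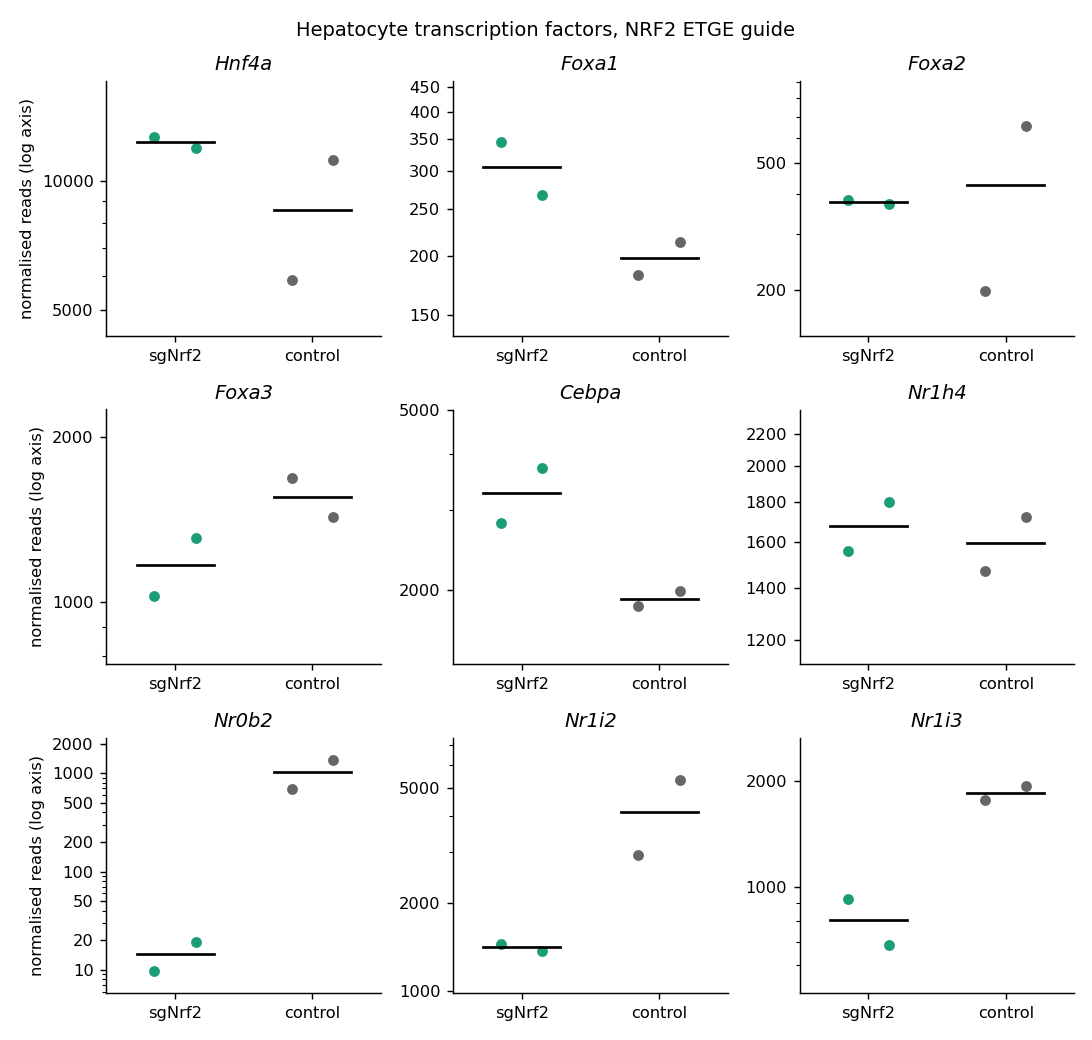
Normalised reads (log axis) of the 9 genes in sgNrf2 tumours A and B and controls A and B. Points are tumours and bars are means, and Nr0b2 is the panel where the groups lie farthest apart, at 9.72 and 19.2 in sgNrf2 tumours and 693 and 1369 in controls.

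Nr0b2, the gene of the repressor SHP (chromosome 4, 133553376 to 133556536, plus strand, GRCm38), had 9.72 and 19.2 normalised reads in sgNrf2 tumours A and B, from 12 and 22 reads, and 693 and 1369 in controls A and B. Both sgNrf2 tumours were far below both controls. The log2 fold change was -6.05 ± 0.53 (SE), with an interval from -7.42 to -4.68, and the adjusted p was 0.0237. Of the 9 members 1 was called in this comparison, where 4.41% of 13989 genes tested were. The call was made in 11 of 11 alternatives, with values between -6.54 and -5.56 and adjusted p between 4.09e-26 and 0.0481. Leaving out 1 library in this comparison leaves 1 tumour on its side, assumed to vary like the other pair, and without control A 3568 genes were called in place of 617. In bulk tumour RNA, fewer cells that express a gene and less RNA per cell cannot be told apart. The hepatocyte markers had a median log2 fold change of -1.26 in sgNrf2 tumours, with 1 of 9 called lower, and a summed level of 318418 to 403511 normalised reads in sgNrf2 tumours and 525928 to 852220 in controls. The share of reads assigned to no gene also differed, at 52.4% and 54.0% in sgNrf2 tumours and 65.3% and 66.8% in controls. The part of either in the level of Nr0b2 was not tested.

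The other nuclear receptors of the set did not pass by limma. DESeq2 called Nr1i2 (-1.57, adjusted p = 0.000441) and Nr1i3 (-1.23, adjusted p = 0.000724), as did limma after quantile normalization (adjusted p = 0.0472 for Nr1i2 and 0.0459 for Nr1i3). Nr1i2, the gene of PXR, had 1453 and 1368 normalised reads in sgNrf2 tumours and 2931 and 5324 in controls. Both sgNrf2 tumours were below both controls, and the log2 fold change was -1.49 ± 0.32 (adjusted p = 0.0671). Without control A it was -1.92 (adjusted p = 0.0222) and without control B -1.06 (0.0493). Nr1i3, the gene of CAR, had 924 and 685 in sgNrf2 tumours and 1767 and 1941 in controls. These groups did not overlap either, and the value was -1.22 ± 0.23 (adjusted p = 0.0543), or -1.29 without control A (adjusted p = 0.0430). Nr1h4, the gene of FXR, had 1561 and 1798 in sgNrf2 tumours and 1469 and 1725 in controls, at 0.07 ± 0.20 (adjusted p = 0.825, interval -0.43 to 0.58). RNA of Nr1h4, whose product induces Nr0b2, was thus measured at overlapping levels in the groups that Nr0b2 separated. The activity of FXR was not measured, and its part in the Nr0b2 level was not tested.

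Hnf4a, the gene of the master regulator of the hepatocyte, had 12706 and 11988 normalised reads in sgNrf2 tumours and 5883 and 11226 in controls. Both sgNrf2 tumours were above both controls, one of which was close to them, and the value was 0.60 ± 0.35 (adjusted p = 0.301), or 1.07 without control B (adjusted p = 0.0496). Cebpa, the gene of the factor that holds hepatocytes out of the cell cycle, had 2813 and 3731 in sgNrf2 tumours and 1837 and 1983 in controls. The groups did not overlap, at 0.76 ± 0.21 (adjusted p = 0.0984 by limma and 0.0448 by DESeq2). Of the pioneer factor genes, Foxa1 had 345 and 267 in sgNrf2 tumours and 182 and 214 in controls (0.62 ± 0.29, adjusted p = 0.217). Foxa3 had 1027 and 1308 in sgNrf2 tumours and 1681 and 1431 in controls (-0.42 ± 0.22, adjusted p = 0.255). Foxa1 was higher and Foxa3 lower in both sgNrf2 tumours than in both controls. Foxa2 had 382 and 373 in sgNrf2 tumours and 198 and 656 in controls, so that the controls enclosed both sgNrf2 tumours (0.07 ± 0.59, adjusted p = 0.95, and -0.79 with adjusted p = 0.0486 without control A). Groups did not overlap for 7 of the 9 members, and with 2 tumours on each side the same held for 64% of all genes tested.

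**Figure D2:**
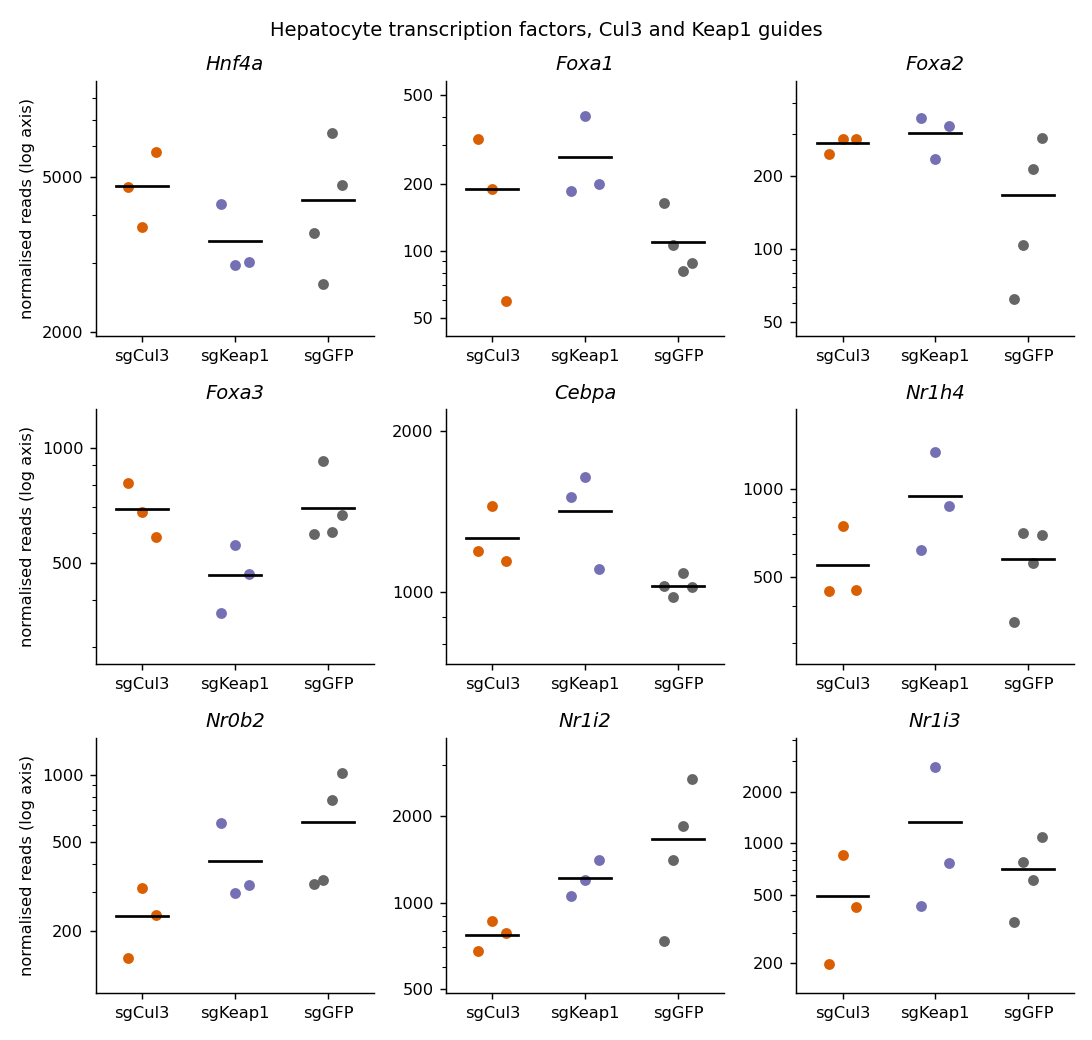
Normalised reads (log axis) of the 9 genes in sgCul3, sgKeap1 and sgGFP tumours. Points are tumours and bars are means, and Cebpa is higher in all 6 tumours with a Cul3 or Keap1 guide than in the 4 sgGFP tumours, which lie between 980 and 1089.

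In sgCul3 tumours 0 of the 9 members passed by limma, where 2.2% of 13045 genes did. At an unadjusted p under 0.05 there were 2, where 17.2% of genes were. DESeq2 called 2, Nr0b2 and Nr1i2, where it called 926 of all genes tested. Nr0b2 had 152, 311 and 237 normalised reads in sgCul3 tumours and 325, 338, 774 and 1021 in sgGFP tumours. Every sgCul3 tumour was below every sgGFP tumour, the highest of the 3 by little, and the value was -1.27 ± 0.44 (adjusted p = 0.173, interval -2.24 to -0.30). Nr1i2 had 677, 865 and 782 in sgCul3 tumours and 735, 1409, 1850 and 2680 in sgGFP tumours. One sgGFP tumour lay among the sgCul3 tumours, and the value was -0.96 ± 0.35 (adjusted p = 0.198), or -1.31 without sgGFP tumour 1 (adjusted p = 0.0339). Nr1i3 had 198, 853 and 422 in sgCul3 tumours and 346, 779, 606 and 1089 in sgGFP tumours, with wide overlap (-0.64 ± 0.64, adjusted p = 0.659). Nr1h4 had 450, 748 and 454 in sgCul3 tumours and 352, 707, 561 and 694 in sgGFP tumours (-0.06 ± 0.32, adjusted p = 0.949). These groups overlapped as well.

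Cebpa had 1197, 1447 and 1146 normalised reads in sgCul3 tumours and 1026, 980, 1089 and 1023 in sgGFP tumours. All 3 sgCul3 tumours were above all 4 sgGFP tumours by a small margin, at 0.29 ± 0.18 (adjusted p = 0.453). With Nr0b2, Cebpa was 1 of 2 members whose sgCul3 and sgGFP tumours did not overlap, as was the case for 16.2% of all genes tested. Hnf4a had 4711, 3717 and 5789 in sgCul3 tumours and 3583, 2648, 6488 and 4757 in sgGFP tumours (0.17 ± 0.31, adjusted p = 0.817). Foxa1 had 319, 190 and 59.4 in sgCul3 tumours and 165, 106, 81.5 and 88.6 in sgGFP tumours (0.53 ± 0.51, adjusted p = 0.650), with sgCul3 tumours both above and below the sgGFP range. Foxa2 had 247, 286 and 286 in sgCul3 tumours and 62.1, 104, 215 and 288 in sgGFP tumours, so that the sgCul3 tumours were alike and lay at the top of a wide sgGFP range (0.93 ± 0.44, adjusted p = 0.306). Foxa3 had 811, 681 and 585 in sgCul3 tumours and 594, 927, 604 and 666 in sgGFP tumours, with a value of 0.00 ± 0.22.

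In sgKeap1 tumours 0 of the 9 members passed by limma, where 7.82% of 13045 genes did. At an unadjusted p under 0.05 there were 4, where 29.2% of genes were, and edgeR and DESeq2 called 0. Foxa1 had 186, 405 and 199 normalised reads in sgKeap1 tumours and 165, 106, 81.5 and 88.6 in sgGFP tumours. All sgKeap1 tumours were higher, tumour 2 by the most, and the value was 1.20 ± 0.51 (adjusted p = 0.148, interval 0.08 to 2.33). Foxa2 had 349, 235 and 323 in sgKeap1 tumours and 62.1, 104, 215 and 288 in sgGFP tumours. The ranges overlapped by 1 tumour on each side, at 1.06 ± 0.44 (adjusted p = 0.140). Foxa3 had 369, 557 and 466 in sgKeap1 tumours and 594, 927, 604 and 666 in sgGFP tumours. All 3 sgKeap1 tumours were lower, at -0.58 ± 0.22 (adjusted p = 0.116), and neither this value nor that of Foxa1, of opposite sign, passed. Cebpa had 1505, 1644 and 1107 in sgKeap1 tumours and 1026, 980, 1089 and 1023 in sgGFP tumours, higher in each (0.44 ± 0.18, adjusted p = 0.139). Groups did not overlap for these 3 genes of 9 and for 25.8% of all genes tested.

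Hnf4a had 4247, 2960 and 3027 normalised reads in sgKeap1 tumours and 3583, 2648, 6488 and 4757 in sgGFP tumours (-0.30 ± 0.31, adjusted p = 0.541), inside the sgGFP range. Nr1h4 had 620, 1336 and 876 in sgKeap1 tumours and 352, 707, 561 and 694 in sgGFP tumours, with tumours 2 and 3 above the sgGFP range (0.69 ± 0.32, adjusted p = 0.184). Nr0b2 had 611, 298 and 323 in sgKeap1 tumours and 325, 338, 774 and 1021 in sgGFP tumours, which overlapped (-0.48 ± 0.44, adjusted p = 0.490). Nr1i2 had 1051, 1202 and 1407 in sgKeap1 tumours and 735, 1409, 1850 and 2680 in sgGFP tumours, with all 3 sgKeap1 tumours inside the sgGFP range (-0.31 ± 0.35, adjusted p = 0.581). Nr1i3 had 428, 2775 and 762 in sgKeap1 tumours and 346, 779, 606 and 1089 in sgGFP tumours (0.57 ± 0.64, adjusted p = 0.576). Tumour 2 stood far above the rest and turned the sign, since the value was -0.18 without it. That library had 6505295 reads on genes, of which 24.5% fell on its 10 most abundant genes.

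Cholangiocytes also express FOXA1 and FOXA2, so their markers were set beside these genes. Of 8 cholangiocyte and progenitor markers tested, 2 rose in sgCul3 and 3 in sgKeap1 tumours, where 2.2% and 7.82% of all genes tested were called. The summed level of the markers was 1649 to 1810 normalised reads in sgCul3 tumours, 889 to 2107 in sgKeap1 tumours and 499 to 694 in sgGFP tumours. In sgNrf2 tumours 0 of 8 passed by limma, 0 by edgeR and 3 by DESeq2. At an unadjusted p under 0.05 by limma there were 2, where 4236 of 13989 genes tested were. The sum was 1070 to 5709 in sgNrf2 tumours and 1161 to 1533 in controls. The part of such cells in the Foxa1 and Foxa2 values was not tested.

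With the Cul3 and Keap1 guides pooled, 0 of 9 members passed against sgGFP by limma, where 7.56% of genes did. At an unadjusted p under 0.05 there were 3, where 27% of genes were, and edgeR and DESeq2 called 0. Cebpa was higher in all 6 tumours with a guide (0.37 ± 0.15, adjusted p = 0.159), the 1 member of 9 whose groups did not overlap, as did not those of 9.23% of genes. Foxa2 was at 1.0 ± 0.37 (adjusted p = 0.118), Foxa1 at 0.87 ± 0.43 (0.222) and Nr0b2 at -0.87 ± 0.37 (0.162). Foxa2 passed without sgGFP tumour 4 (1.33, adjusted p = 0.0496), Foxa1 without sgCul3 tumour 3 (1.20, adjusted p = 0.0382) and Nr1i2 without sgGFP tumour 1 (-0.98, adjusted p = 0.0312). Between the guides, sgKeap1 against sgCul3, 0 of 9 members passed by limma and 0.0613% of genes did. At an unadjusted p under 0.05 there was 1, where 10.1% of genes were, and edgeR and DESeq2 called 0. Foxa3 was lower in each sgKeap1 tumour than in each sgCul3 tumour (-0.58 ± 0.24, adjusted p = 0.474, interval -1.11 to -0.06) and Nr1i2 higher (0.65 ± 0.38, adjusted p = 0.553, interval -0.18 to 1.48), while 15.8% of genes had no overlap between these groups. The intervals for the remaining members each included 0, and the widest, for Nr1i3, ran from -0.29 to 2.73. For each member, a difference between the guides inside its own interval remains possible.

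**Figure D3:**
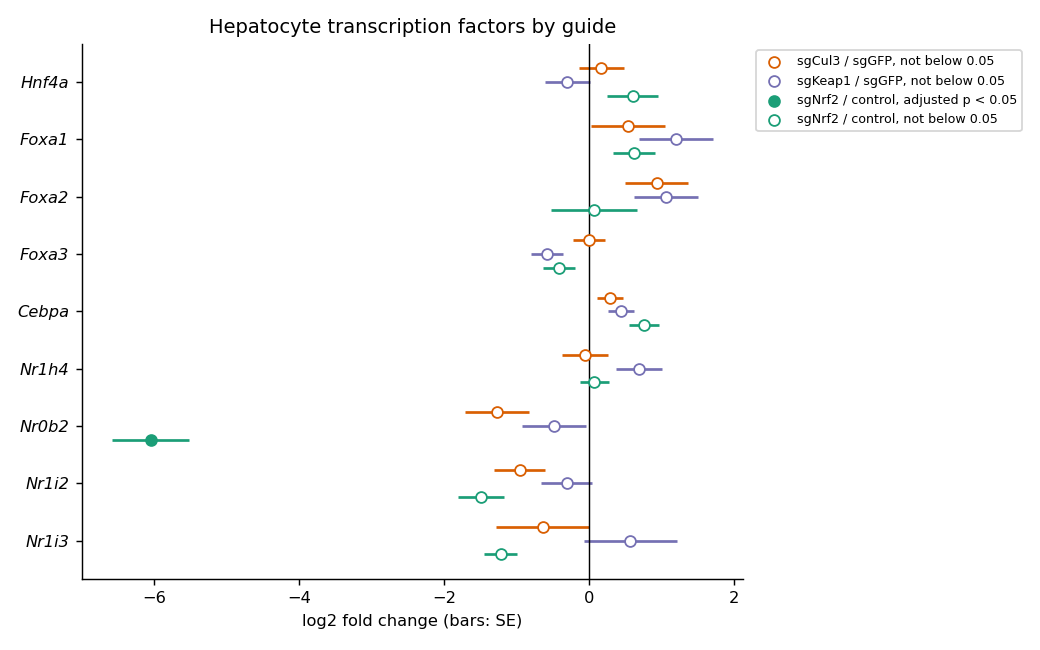
Log2 fold changes of the 9 genes in sgCul3 and sgKeap1 tumours against sgGFP and in sgNrf2 tumours against controls, with SE bars. Filled points mark an adjusted p under 0.05, which Nr0b2 in sgNrf2 tumours reached at -6.05, while the other values lie between -1.49 and 1.20.

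The members also differed in how much they varied among control tumours. The SD of log2 values over the 4 sgGFP tumours was 0.06 for Cebpa, lower than for all but 1.03% of 9021 genes with a mean of at least 100, and 1.0 for Foxa2, higher than for 95.4% of them. It was 0.84 for Nr0b2, 0.79 for Nr1i2 and 0.70 for Nr1i3, against a median of 0.32 over these genes. Controls A and B gave a second view of 2 of these tumours. Tumour 2 minus tumour 4 was -1.46 for Foxa2 in the first table and control A minus control B was -1.72 in the second, and Nr1i2 was at -0.93 and -0.86, Hnf4a at -0.84 and -0.93 and Nr0b2 at -1.59 and -0.98. The sign was shared for 7 of the 9 members and for 70.6% of 9020 genes, and the exceptions, Foxa1 and Nr1h4, had differences of at most 0.25 in size.

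**Figure D4:**
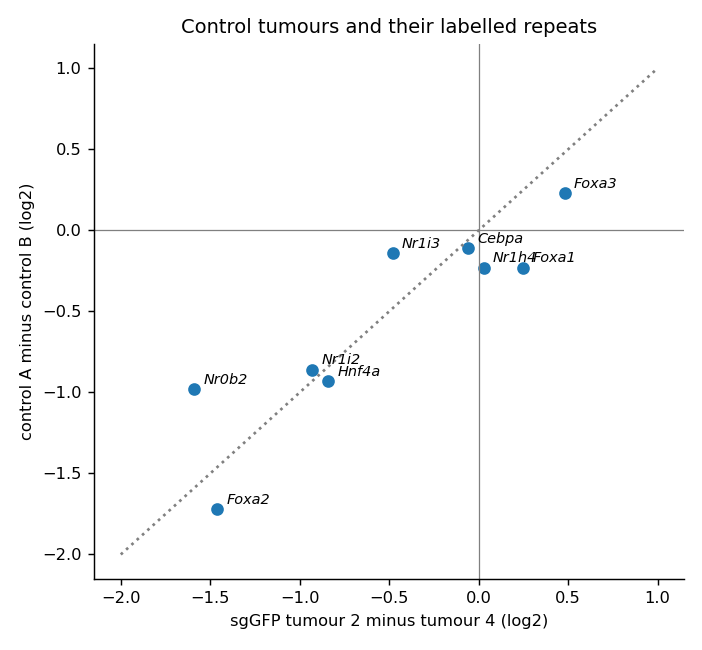
Log2 difference of sgGFP tumours 2 and 4 (horizontal axis) and of their labelled repeats, controls A and B (vertical axis), for the 9 genes, with the line of equality dotted. Foxa2, Nr0b2, Nr1i2 and Hnf4a were lower in tumour 2 and in control A, and Cebpa lay near 0 on both axes.

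For each member, the genes with the most similar profile over the 10 libraries of the first table were found among 9029 genes by the root mean square difference of centred log2 values. The nearest were Dsg2 for Hnf4a (0.11), 2010315B03Rik for Nr1h4 (0.11), Ninj1 for Cebpa (0.12), Kalrn for Foxa3 (0.17), Prodh2 for Nr1i2 (0.20), Crb3 for Foxa1 (0.28), Gsta4 for Foxa2 (0.29), Agxt2 for Nr1i3 (0.30) and Arsa for Nr0b2 (0.33). The members' own deviations around their means were 0.25 for Cebpa, the smallest, to 0.98 for Nr1i3, the largest, so the difference for Nr0b2, whose own deviation was 0.78, was less close than that for Nr1h4, at 0.52.

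The target genes of FXR and SHP moved in both directions in sgNrf2 tumours. Of the 20 genes listed 18 were tested there, 3 rose and 4 fell (1 and 2 without either sgNrf2 tumour, 4 and 8 without control A), with a median log2 fold change of -0.99 beside 0.04 over all genes tested. By limma 4.41% of all genes tested were called in this comparison. The 3 targets that rose were Cyp8b1, the sterol 12-alpha-hydroxylase, Cyp7a1, which begins bile acid synthesis, and Baat, which conjugates bile acids. Slc27a5, which acts with Baat in conjugation, was at -1.12 ± 0.60 (adjusted p = 0.271). The 4 that fell were Fabp6, an intracellular bile acid binding protein, Fgf15, a hormone that FXR induces in the ileum, Slc51b, a basolateral exporter subunit, and Abcb11, the canalicular bile salt export pump.

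Cyp8b1 had 1745 and 2713 normalised reads in sgNrf2 tumours and 30.2 and 18.98 in controls (6.45 ± 0.39, adjusted p = 0.0198). Cyp7a1 had 486 and 415 in sgNrf2 tumours and 22.6 and 22.8 in controls (4.25 ± 0.34, adjusted p = 0.0237). Both enzyme genes were higher in both sgNrf2 tumours than in both controls, and the part of the Nr0b2 level in this was not tested. Baat had 749 and 691 in sgNrf2 tumours and 181 and 225 in controls (1.83 ± 0.25, adjusted p = 0.0401). Fabp6 had 41.3 and 21.9 in sgNrf2 tumours and 10590.3 and 6017 in controls (-8.00 ± 0.44, adjusted p = 0.0167). Fgf15 had 0 reads and 1 read in sgNrf2 tumours and 277 over both controls, 384 times more in controls after scaling (exact 95% interval 68.3 to 15204; adjusted p = 0.0291, or 0.0547 where the mean had to reach 50). Fabp6 and Fgf15 fell, as did Nr0b2, itself a gene that FXR induces, and the part of FXR in this was not tested. Slc51b had 186 and 270 in sgNrf2 tumours and 1708 and 2989 in controls (-3.33 ± 0.36, adjusted p = 0.0337). Abcb11 had 937 and 1671 in sgNrf2 tumours and 5221 and 9400 in controls (-2.48 ± 0.41, adjusted p = 0.0472). For Cyp8b1 and Fabp6 the call was made with each tumour left out in turn, and that of Fgf15 as well. With sgNrf2 tumour A or B left out, Cyp7a1 (adjusted p = 0.101 and 0.0903), Baat (0.258 and 0.205), Slc51b (0.0539 and 0.0548) and Abcb11 (0.152 and 0.0775) did not pass, nor did Abcb11 without control B (0.0676). Slc51b, Abcb11 and Baat were named after their values were seen.

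The sgCul3 and sgKeap1 tumours are in the other table, and the difference in counts from sgNrf2 was not tested. In sgCul3 tumours 1 of 18 tested rose, where 2.2% of all genes tested were called. It was Cyp8b1, with 64.9, 211 and 76.6 normalised reads in sgCul3 tumours and 10.8, 7.67, 11.5 and 7.16 in sgGFP tumours (3.22 ± 0.51, adjusted p = 0.0104). The count of targets called was 1 under every alternative. In sgKeap1 tumours 2 rose and 2 fell, 4 of 18, where 7.82% of all genes tested were called. Cyp8b1 had 108, 349 and 107 in sgKeap1 tumours and the same sgGFP values as above (3.86 ± 0.51, adjusted p = 0.00164). Cyp8b1 was thus above its controls in every tumour with a guide. Fabp6 had 98.1, 10.1 and 114 in sgKeap1 tumours and 1087, 5110, 2246 and 2491 in sgGFP tumours (-5.51 ± 0.84, adjusted p = 0.00366). Baat (3.26 ± 0.81, adjusted p = 0.0362) and the fibrinogen gene Fga (-1.99 ± 0.45, adjusted p = 0.0257) did not pass without sgKeap1 tumour 2 (adjusted p = 0.134 and 0.103), without sgKeap1 tumour 3 (0.0967 and 0.1003) or without any 1 of sgGFP tumours 1 to 3 (0.0586 to 0.0776 and 0.0548 to 0.0720). Cyp7a1 was at 1.28 ± 0.80 in sgCul3 and 1.65 ± 0.80 in sgKeap1 tumours, and Slc51b at -0.18 ± 0.56 and 0.24 ± 0.56, none of which passed. Without the 3 libraries under 8000000 reads, which leaves 1 sgKeap1 tumour assumed to vary like the other groups, Cyp8b1 (3.30, adjusted p = 0.118) and Fabp6 (-4.56, adjusted p = 0.108) did not pass in sgKeap1 tumours.

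**Figure D5:**
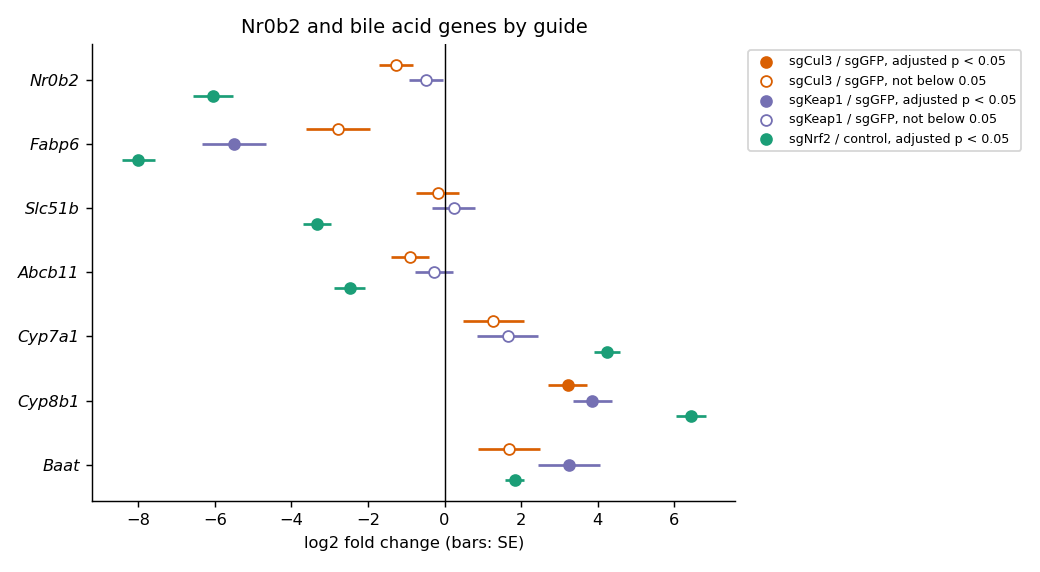
Log2 fold changes of Nr0b2 and 6 bile acid genes in sgCul3 and sgKeap1 tumours against sgGFP and in sgNrf2 tumours against controls, with SE bars. Filled points mark an adjusted p under 0.05. All 7 genes are filled for sgNrf2, from -8.00 for Fabp6 to 6.45 for Cyp8b1, and Cyp8b1 is filled for all 3 guides. The 6 bile acid genes shown are all among the listed targets called in sgNrf2 tumours, so their filled points there follow from the choice. Of the 18 listed targets tested there, 11 were not called.

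Of 28 target genes of PXR and CAR, 22 were tested in sgNrf2 tumours, where 1 rose and 6 fell (0 and 1 without either sgNrf2 tumour, 1 and 15 without control A), with a median of -1.92 beside 0.04 over all genes tested. In this comparison 4.41% of all genes tested were called. The targets that fell included the sulfotransferase Sult2a1, with 81.8 and 68.2 normalised reads in sgNrf2 tumours and 1761 and 3749 in controls (-5.09 ± 0.42, adjusted p = 0.0237). The stress gene Gadd45b (-2.22 ± 0.29, adjusted p = 0.0381) and the P450 reductase Por (-1.65 ± 0.22, adjusted p = 0.0391) were among them as well. The gene that rose was the aldehyde dehydrogenase Aldh1a1, with 17898.5 and 17240.3 in sgNrf2 tumours and 3091 and 1855 in controls (2.87 ± 0.29, adjusted p = 0.0308). Gadd45b, Por and Aldh1a1 did not pass without sgNrf2 tumour A (adjusted p = 0.0881, 0.147 and 0.0599) or tumour B (0.128, 0.193 and 0.0745), and reads of the P450 and sulfotransferase families may be shared between close copies. In sgCul3 tumours 0 of 25 passed by limma, where 2.2% of all genes tested did. There were 5 at an unadjusted p under 0.05, where 17.2% of genes were. EdgeR called 0 of the 25 and DESeq2 3. With the tumour number as a block, or without sgGFP tumour 2, Aldh1a1 passed in sgCul3 tumours (1.47 with adjusted p = 0.0234, and 1.88 with adjusted p = 0.0316). In sgKeap1 tumours 2 of 25 rose, where 7.82% of all genes tested were called. They were Aldh1a1 (2.04 ± 0.37, adjusted p = 0.0101) and the exporter Abcc2 (1.63 ± 0.33, adjusted p = 0.0158, and 0.0674 without sgKeap1 tumour 3). Without libraries under 8000000 reads, which leaves 1 sgKeap1 tumour, Aldh1a1 was at 1.95 and Abcc2 at 1.85. These are effect sizes only, and they do not uphold either call. The median was -0.21 in sgCul3 and 0.09 in sgKeap1 tumours.

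Targets of HNF4A, C/EBPα and FOXA numbered 25 tested of 26 in each comparison. Their counts in sgNrf2 tumours stand beside 4.41% of all genes tested that were called there. In sgNrf2 tumours 1 rose and 3 fell (1 and 13 without control A, 0 and 1 without sgNrf2 tumour B), with a median of -0.75 beside 0.04 over all genes: the tryptophan dioxygenase Tdo2 rose (3.45 ± 0.43, adjusted p = 0.0362), and Igfbp1 (-4.71 ± 0.38, adjusted p = 0.0237), whose product binds insulin-like growth factors, the urea cycle gene Ass1 (-1.99 ± 0.20, adjusted p = 0.0293) and the apolipoprotein gene Apoc3 (-1.61 ± 0.21, adjusted p = 0.0394) fell. Without sgNrf2 tumour B, Tdo2 was at adjusted p = 0.0848, Ass1 at 0.138 and Apoc3 at 0.222, and without tumour A Ass1 was at 0.142 and Apoc3 at 0.246. In sgKeap1 tumours 0 rose and 1 of 25 fell, where 7.82% of all genes tested were called. It was Igfbp1 (-3.60 ± 0.71, adjusted p = 0.0150, but 0.0568 without sgKeap1 tumour 2 and 0.0535 without tumour 3). By limma 0 of 25 passed in sgCul3 tumours, with 5 at an unadjusted p under 0.05, where 17.2% of genes were. EdgeR called 0 and DESeq2 4 of the 25 there.

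Among the partners of nuclear receptors, 17 of 18 were tested in each comparison. In sgKeap1 tumours Rxra, which pairs with FXR, PXR and CAR, fell (-0.96 ± 0.25, adjusted p = 0.0400), a call not made without sgKeap1 tumour 1, 2 or 3 (adjusted p = 0.0587, 0.0700 and 0.135) or without sgGFP tumour 1, 3 or 4 (0.0663, 0.0847 and 0.0523). Its paralogue Rxrg rose there, with 56 reads in sgKeap1 tumours and 2 in sgGFP tumours, a ratio of 58.5 after scaling (exact 95% interval 15.4 to 495), and its adjusted p of 0.0183 became 0.0530 without sgGFP tumour 3 and 0.05002 without sgKeap1 tumour 3. In sgNrf2 tumours Rxra had the opposite sign (0.88 ± 0.20, adjusted p = 0.0722, or 1.03 with adjusted p = 0.0287 without control A) and 0 of 17 passed by limma, as in sgCul3 tumours, with 3 in each at an unadjusted p under 0.05, 0 in each by edgeR, and by DESeq2 2 in sgNrf2 and 1 in sgCul3 tumours. Of all genes tested, 4236 of 13989 in sgNrf2 and 2241 of 13045 in sgCul3 tumours were at an unadjusted p under 0.05 by limma. Rxrg was among the partners that DESeq2 called in both (adjusted p = 0.0104 in sgNrf2 and 0.0335 in sgCul3 tumours). It had 23 reads in sgCul3 tumours and 2 in sgGFP tumours (ratio 18.5, exact 95% interval 4.57 to 162). In sgNrf2 tumours it had 103 reads, and 1 in controls (ratio 74.4, interval 13.1 to 2966). Of 31 further liver transcription factors 30 were tested. The fasting factor genes Creb3l3 (-1.38 ± 0.28, adjusted p = 0.0337) and Ppara (-1.60 ± 0.34, adjusted p = 0.0423) fell in sgCul3 tumours, but not by edgeR (0.0503 and 0.0544). Cebpd (-1.91 ± 0.36, adjusted p = 0.0111) fell in sgKeap1 tumours. Limma called Creb3l3 (-1.17, adjusted p = 0.0143), Ppara (-1.35, 0.0190) and Cebpd (-1.64, 0.00962) with both guides pooled. Creb3l3 (-0.97) and Ppara (-1.11) in sgKeap1 and Cebpd (-1.37) in sgCul3 tumours did not pass. In sgNrf2 tumours Creb3l3 (-1.52), Cebpd (-2.41) and Ppara (0.31) did not pass either. Without sgCul3 tumour 1, Creb3l3 was at adjusted p = 0.162 and Ppara at 0.161. Neither passed without any 1 of sgGFP tumours 2 to 4 (0.0592 to 0.0843 and 0.0726 to 0.119), nor did Creb3l3 without sgGFP tumour 1 (0.0548) or sgCul3 tumour 3 (0.0625), or Ppara without sgCul3 tumour 2 (0.0868).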

How the data were processed

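The authors deposited 2 tables of gene values. Each value is a signal: per the submitters' processing notes and the deposited tables, HTSeq gene counts on mm10 were scaled by DESeq, and Picard is also named. For aligner and annotation release, nothing is given in the sources used here. Every entry of the first table carries an added 1. Without it, 100% of values were whole multiples of 1 step per library (within 0.1 reads), and reads were recovered from these steps. Normalised reads are the deposited values without the added 1, and RPKM uses merged exons of GENCODE M21 (GRCm38). The 4 entries of reads without a gene in the second table stayed out of tests. The tables were scaled separately, so tests stayed within a table.

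Tests were two-sided and covered the genes whose deposited values averaged 10 or more (13045 and 13989). They used limma's moderated test with a trend in the mean (limma 3.58.1, R 4.3.3) after adding 1 to the deposited values and taking log2, a method tested on simulated data. Called means a Benjamini-Hochberg adjusted p under 0.05 over all genes tested, and fold changes on this scale understate those of low genes. The spread was estimated over all 3 groups in the first table. All 9 members passed the filter in both tables. The members, gene lists and rule for named genes were chosen with earlier results of these data known. Apart from the members and the edited genes, the rule names up to 4 called genes per list, by smallest adjusted p, together with the genes nearest in profile. Some of the genes so named are left out of the text, and 1 item is not reported here.

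Same-numbered sgCul3 and sgGFP tumours deviated together around the means of their groups, with correlations of 0.164, 0.175 and 0.314, each above 0.1, so these tumours were taken, from the data, as paired. The sgCul3 values given in the text nevertheless come from the fit without this pairing, except where the block is named. The block calls 0 members there, as without it, and 232 genes in place of 287. It also covers the sgKeap1 tumours, whose numbers were not taken to pair them with sgGFP tumours. Alternatives were a pseudocount of 5, the added 1 removed, no filter or a mean of at least 50, quantile normalization, edgeR 4.0.16 and DESeq2 1.42.0 fitted to the recovered reads, a block for tumour number, only the groups compared, each library left out, and all libraries under 8000000 reads left out. Intervals from reads cover counting error only.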

Additional observations from a re-analysis of the deposited data

How the results depend on the processing

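Nr0b2 in sgNrf2 tumours kept its direction and its call in all 11 alternatives. Members called changed as follows. DESeq2 called 2 in sgCul3 and 4 in sgNrf2 tumours, and quantile normalization 3 in sgNrf2. With a library left out, 0 to 1 were called in sgCul3, 0 to 1 with both guides together and 1 to 4 in sgNrf2 tumours. The replicate block called 2 in sgKeap1 (Foxa2 at 1.4 and Nr1h4 at 0.79) and 1 with both guides together (Foxa2 at 1.33, adjusted p = 0.0345). Same-numbered sgKeap1 and sgGFP tumours, which enter both of these comparisons, correlated at -0.09 to 0.20, not each above 0.1, so the numbers were not taken to pair them. The block changed no other member's call.

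Counts of all genes called depended more on the method. With DESeq2 they were 926 in sgCul3, 2143 in sgKeap1, 2052 together, 104 between the guides and 2651 in sgNrf2. Without libraries under 8000000 reads, which leaves 1 sgKeap1 tumour assumed to vary like the other groups, they were 45, 38, 110 and 0 in the first table. Only the groups compared gave 168 in sgCul3 and 0 between the guides, a mean of at least 50 gave 162 in sgCul3, the replicate block 1778 in sgKeap1, and quantile normalization 972 in sgNrf2. Leaving out 1 library gave 65 to 328, 314 to 1502, 395 to 1553, 0 to 9 and 58 to 3568.

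Signs turned for these values, none of them called by limma with all libraries. Foxa3 in sgCul3 was at -0.01 with quantile normalization, edgeR and the replicate block, -0.02 with DESeq2, -0.12 without libraries under 8000000 reads and -0.12 to 0.15 with a library left out. Nr1h4 in sgCul3 was at 0.05 with the replicate block, 0.06 without those libraries and -0.30 to 0.06 with a library left out, Hnf4a at -0.04 to 0.39 with a library left out, and Slc51b at 0.11 with the block and -0.47 to 0.11 with a library left out. In sgKeap1, leaving out those libraries gave Hnf4a 0.04, Nr0b2 0.17 and Nr1i3 -0.60 (and -0.49 against sgCul3), and leaving out 1 library gave Nr1i3 -0.18 to 1.16, Slc51b -0.25 to 1.0 and Abcb11 -0.79 to 0.22. Together, Hnf4a was at 0.00 with the block, 0.10 without those libraries and -0.28 to 0.15 with a library left out, and Nr1i3 at 0.19 with edgeR, 0.20 with DESeq2, 0.21 with the block and -0.41 to 0.26 with a library left out. In sgNrf2, Foxa2 was at -0.18 with edgeR, -0.19 with DESeq2 and, with a library left out, -0.79 to 0.93, Nr1h4 at -0.04 to 0.19 and Nfe2l2 at -0.25 to 0.15. The cause of these changes was not tested. With 2 tumours per group in the second table and shallow libraries in the first, a p that misses the threshold leaves every difference inside its interval possible.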
